A study of Mus musculus with 4 samples.

Results

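The mitochondrial ribosomal protein genes were taken as every gene whose symbol begins with *Mrpl* or *Mrps* followed by a digit, where l stands for the large and s for the small ribosomal subunit. Of the 19030 genes listed, 77 met this rule, 48 of them *Mrpl* and 29 *Mrps*. Their levels were read in ingWAT, the inguinal depot of white adipose tissue under the skin, from 3-month-old C57BL/6 mice kept at 4°C. Both groups carry an *Oct3* allele flanked by loxP sites. Ctrl mice lack Cre, and cKO mice also carry Adiponectin-Cre, so that *Oct3* (*Slc22a3*, a transporter that takes up catecholamines) is deleted in adipocytes while the other cells of the depot keep it. There were 2 libraries of each genotype, and the number of mice behind a library is not given in the sources used here. All p-values therefore measure the spread between these libraries, which may be technical.

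Mitochondria translate their own small genome, which codes for core subunits of ATP synthase and of the respiratory chain, on a ribosome of their own. The RNAs of this ribosome come from the mitochondrial genome, but all its proteins are encoded in the nucleus, made in the cytosol and imported. Some belong to families shared with the bacterial ribosome, and others are found in mitochondria alone. Brown and beige fat cells are rich in mitochondria, whose respiratory chain is built from subunits of both genomes.

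The targeted gene was checked first. *Slc22a3* had an FPKM (reads scaled by transcript length and library size) of 16.95 and 17.68 in the Ctrl libraries and of 9.07 and 9.5 in the cKO libraries, so the groups did not overlap. The log2 fold change was −0.83 (limma, adjusted p = 0.000439). Estimated depth was close to even, from 17600000 to 18700000 reads a library. The tissue label was checked against marker genes. White adipocyte genes were abundant in every library, with a summed FPKM of 30130 and 28704 in Ctrl and of 22254 and 22511 in cKO, and 4 of 6 fell. All 7 brown adipocyte genes rose, from a summed FPKM of 1521 and 1800 to 4793 and 4051. Skeletal muscle genes summed to 2510 and 1687 in Ctrl but to 11.9 and 9.34 in cKO, and the 11 tested of 13 all fell. B cell genes rose in 4 of 4, T cell genes in 3 of 4. Of macrophage genes 1 of 5 rose and 2 fell, 2 of 4 endothelial and 2 of 5 erythroid genes fell, and keratinocyte and epithelial genes summed to at most 2.43. Fewer cells of a type and less RNA per cell cannot be told apart in bulk tissue, and the part of these shifts in the results was not tested.

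All 77 genes had a mean FPKM of at least 1 and were compared. Of these, 23 rose in cKO, none fell, and 54 did not pass the test (limma, Benjamini-Hochberg adjusted p under 0.05 over 12658 genes). Over all genes tested, 12.0% rose and 13.8% fell. At an unadjusted p under 0.05 (limma), 39 of the mitochondrial ribosomal protein genes were higher and 0 were lower. The share of all genes at that unadjusted threshold was not counted, so this number has no background beside it. Both cKO libraries lay above both Ctrl libraries in 63 of the 77 genes, against 31.9% of all genes, and below both in 1 gene, against 34.6% of all genes. The median log2 fold change was 0.16 with an interquartile range from 0.09 to 0.24, beside a median of −0.01 over all genes tested. The estimate was positive in 72 of the 77. Changes were small for a single gene. Only 3 of the 77 estimates were above 0.5, and the smallest change that passed was 0.21. The median 95% interval reached 0.15 to either side, so a gene that did not pass is not thereby shown to be unchanged. The count depends on single libraries and on the filter. It was lower with any library left out, as was the count over all genes. With no filter on low values it was 10, where 667 of all 19030 genes rose. The median log2 fold change was 0.16 without Ctrl replicate 1, 0.17 without Ctrl replicate 2, 0.15 without cKO replicate 1 and 0.16 without cKO replicate 2.

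**Figure D1:**
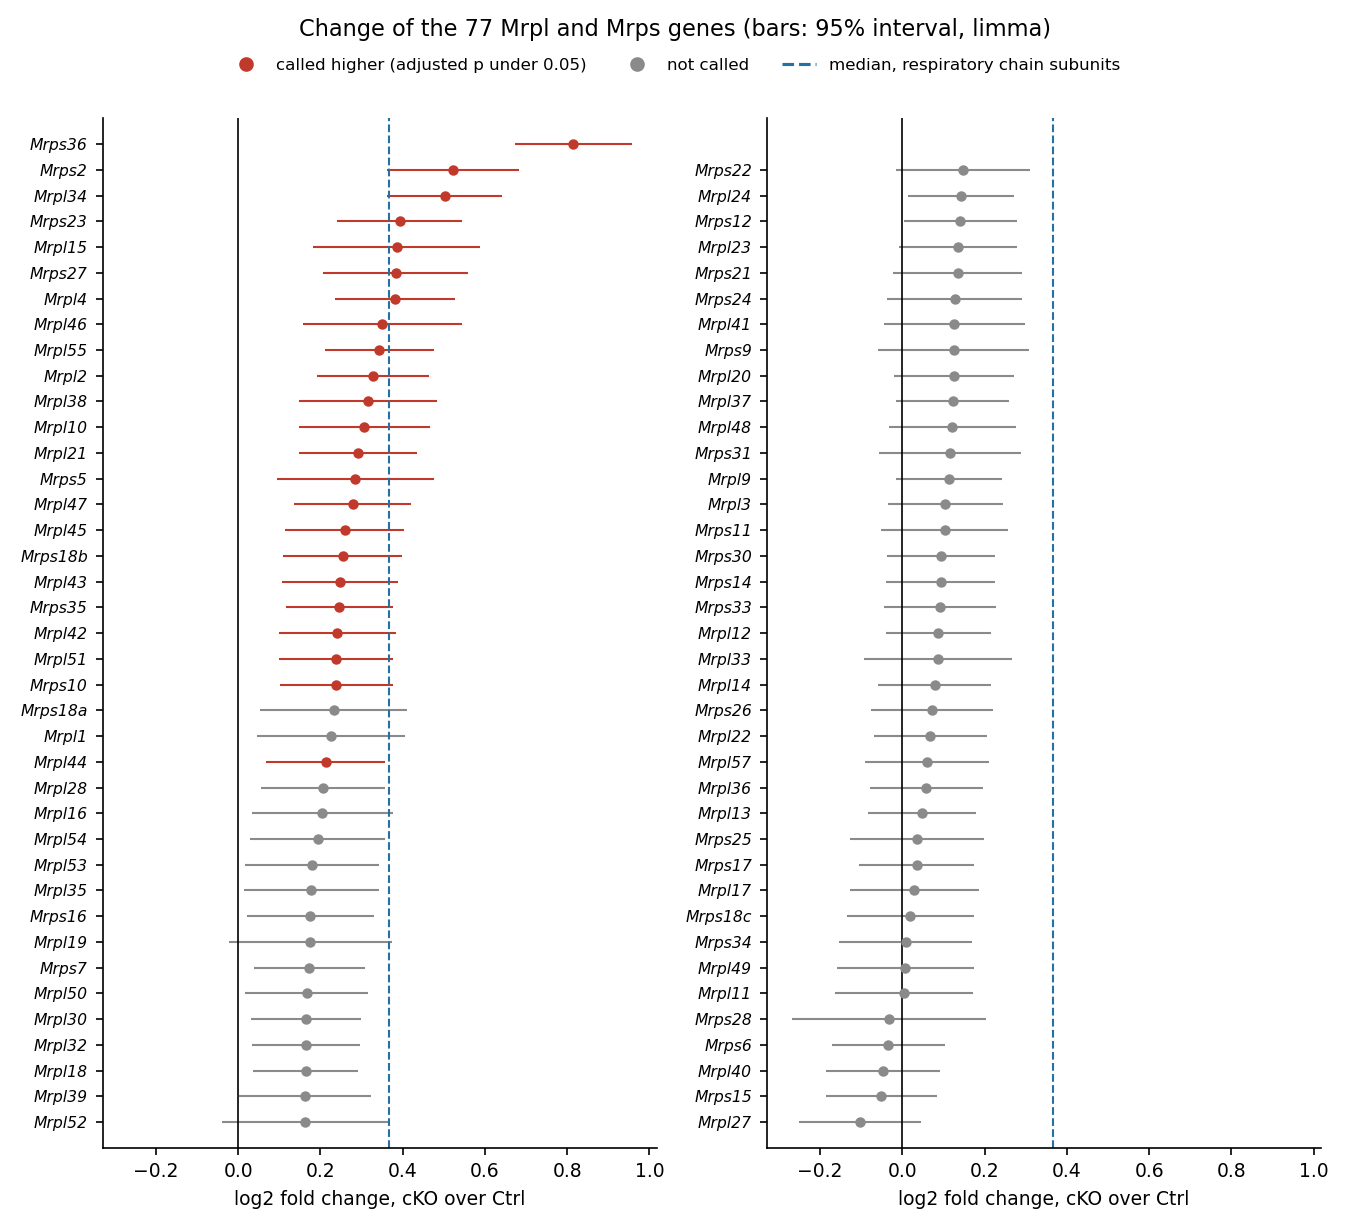
Log2 fold change of each mitochondrial ribosomal protein gene (x axis, cKO over Ctrl) with its 95% interval from limma, sorted from the highest to the lowest in 2 columns. Red points are the 23 genes that passed the test, grey points the 54 that did not, and the dashed line marks the median of the nuclear-encoded respiratory chain list (ATP synthase included) at 0.37, and 7 genes lie to the right of it.

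The largest rise belonged to a gene whose name misleads. *Mrps36* (gene ID 66128, GRCm38 chr13:100735955-100744659, minus strand) codes for a protein now known as a subunit of the 2-oxoglutarate dehydrogenase complex of the citric acid cycle, not of the ribosome. Its FPKM was 60.77 and 59.72 in the Ctrl libraries and 110.84 and 102.76 in the cKO libraries. The groups were far apart, with a log2 fold change of 0.81 ± 0.06 (SE, limma, adjusted p = 0.00036). The catalytic subunits of the same complex, looked up after this value was seen, also rose. *Ogdh* had a log2 fold change of 0.87, *Dlst* of 0.65 and *Dld* of 0.48 (limma, adjusted p from 0.00149 to 0.00627). Leaving *Mrps36* out, 22 of 76 genes rose and the median log2 fold change was 0.16.

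Among the true ribosomal proteins, the clearest changes were in 1 protein of each subunit, both of families shared with bacteria. *Mrps2* (GRCm38 chr2:28468066-28471178, plus strand), of the small subunit, had an FPKM of 22.86 and 25.41 in Ctrl and of 35.41 and 34.68 in cKO. *Mrpl34* (GRCm38 chr8:71464959-71465747, plus strand), of the large subunit, had an FPKM of 78.12 and 81.05 in Ctrl and of 116.54 and 109.81 in cKO. Every cKO library was above every Ctrl library in both. The log2 fold changes were 0.52 ± 0.07 and 0.50 ± 0.06 (SE, limma, adjusted p = 0.00223 and 0.00155). With *Mrps36*, these were the only genes of the 77 that passed under each of the 11 alternative analyses, in which the log2 fold change ranged from 0.45 to 0.60 for *Mrps2* and from 0.46 to 0.54 for *Mrpl34*.

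**Figure D2:**
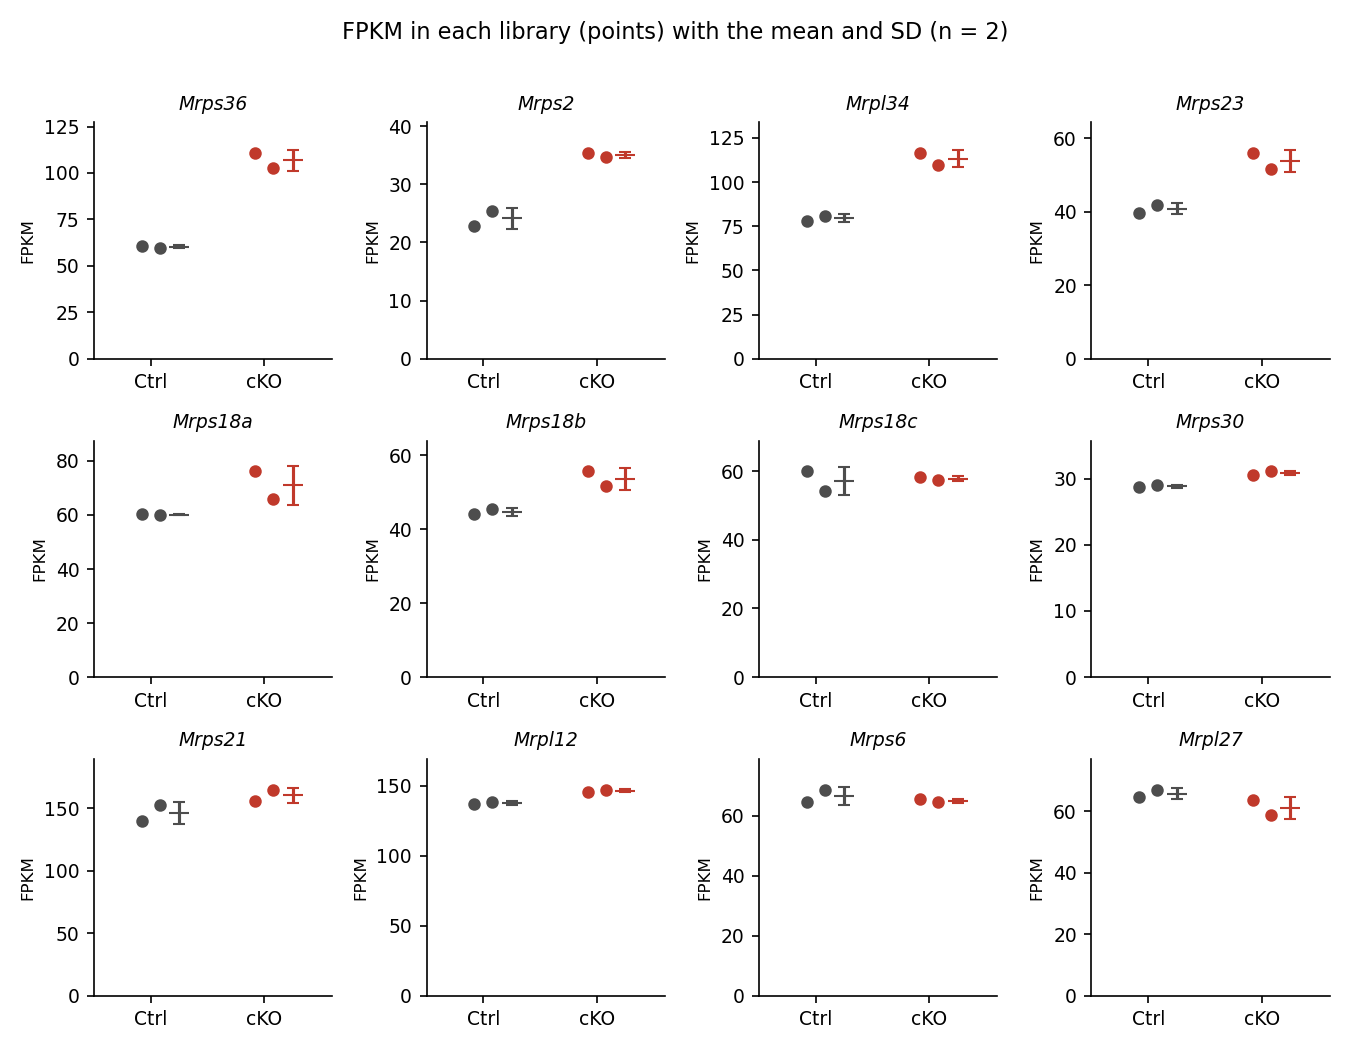
FPKM (y axis, from 0) of 12 mitochondrial ribosomal protein genes in the 2 Ctrl (grey) and 2 cKO (red) libraries, with the mean and SD of each group beside the points. The groups are widely apart in *Mrps36*, *Mrps2*, *Mrpl34* and *Mrps23*, apart by a narrow gap in *Mrps30*, *Mrps21*, *Mrpl12* and, with cKO lower, *Mrpl27*, and overlap in *Mrps18c* and *Mrps6*.

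In the large subunit, counted by the place of the protein, 15 of 50 genes rose and the median log2 fold change was 0.16. The risers came from several places of the particle. *Mrpl4*, which lines the tunnel through which the new chain leaves, had an FPKM of 50.82 and 52.17 in Ctrl and of 70.1 and 64.66 in cKO. *Mrpl45*, which sits beside the exit of that tunnel and holds the ribosome to the inner membrane, had 16.98 and 17.92 in Ctrl and 21.17 and 20.99 in cKO. The groups did not overlap in either gene, and the log2 fold changes were 0.38 and 0.26 (limma, adjusted p = 0.00514 and 0.0212). *Mrpl2*, of the core near the site of peptide bond formation, rose by 0.33 on the log2 scale (limma, adjusted p = 0.00692). *Mrpl10*, which anchors the stalk that recruits translation factors, had an FPKM of 46.77 and 49.79 in Ctrl and of 62.71 and 57.24 in cKO, a log2 fold change of 0.31 (limma, adjusted p = 0.0161). *Mrpl12*, the stalk protein itself, had 136.78 and 138.54 in Ctrl and 145.67 and 146.98 in cKO, a log2 fold change of 0.09 that did not pass (limma, adjusted p = 0.279). *Mrpl11*, at the base of the stalk, had 13.48 and 13.6 in Ctrl and 14.26 and 12.93 in cKO, and its groups overlapped. The difference between these stalk genes in their response was not tested.

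Of the other large subunit genes of bacterial families, *Mrpl15* (log2 fold change 0.39), *Mrpl55* (0.34), *Mrpl21* (0.29) and *Mrpl47* (0.28) rose. Of those found in mitochondria alone, the genes that rose were *Mrpl46* (0.35), *Mrpl38* (0.32), *Mrpl43* (0.25), *Mrpl42* (0.24), *Mrpl51* (0.24) and *Mrpl44* (0.21), all on the log2 scale and by the limma fit. The adjusted p-values of these 10 genes ran from 0.00514 for *Mrpl55* to 0.0424 for *Mrpl44*. *Mrpl47* shares 616 exon bases with *Ndufb5*, a respiratory chain gene on the other strand that also rose, with a log2 fold change of 0.46 (limma, adjusted p = 0.00399). The sources used here do not say that strand was kept in counting, so reads of such overlapping genes cannot be told apart. This touches 23 of the 77 genes and 5 of the 23 that rose, *Mrpl21*, *Mrpl43*, *Mrpl44*, *Mrpl46* and *Mrpl47*.

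In the small subunit, 7 of 26 genes rose and the median log2 fold change was 0.13. Beside *Mrps2*, these were *Mrps5* and *Mrps10* of bacterial families, with log2 fold changes of 0.28 and 0.24. The others were *Mrps18b*, and *Mrps23*, *Mrps27* and *Mrps35*, found in mitochondria alone. *Mrps23* had an FPKM of 39.7 and 41.86 in Ctrl and of 56.0 and 51.74 in cKO. *Mrps27*, a pentatricopeptide repeat protein, had 19.26 and 18.48 in Ctrl and 26.49 and 23.4 in cKO. *Mrps35* had 30.88 and 31.46 in Ctrl and 37.29 and 37.02 in cKO. The groups were apart in all of these, and the log2 fold changes were 0.39, 0.38 and 0.25 (limma, adjusted p = 0.00525, 0.0103 and 0.0169). *Mrps12*, at the decoding centre where codon meets anticodon, had 46.13 and 44.79 in Ctrl and 51.64 and 48.83 in cKO, and did not pass (log2 fold change 0.14, limma, adjusted p = 0.122).

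By origin, 11 of 46 genes counted in bacterial families rose (median log2 fold change 0.14), as did 11 of 30 genes counted as found in mitochondria alone (median 0.16). The 30 include *Mrps18a* and *Mrps18b*, although their paralog *Mrps18c* was counted in a bacterial family, so this split is not strictly one of origin. Whether subunits or origins differ in their response was not tested.

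Names and places part ways in some small subunit genes, which gives a comparison among close relatives. *Mrps18a*, *Mrps18b* and *Mrps18c* are paralogs that occupy different sites, and the product of *Mrps18a* lies in the large subunit. *Mrps18b* had an FPKM of 44.04 and 45.53 in Ctrl and of 55.67 and 51.59 in cKO, and rose by 0.25 on the log2 scale (limma, adjusted p = 0.0232). *Mrps18a* had 60.38 and 59.9 in Ctrl and 76.11 and 65.92 in cKO. Its log2 fold change of 0.23 had a 95% interval from 0.05 to 0.41 and did not pass (limma, adjusted p = 0.0624), with the cKO libraries further from each other than in its paralogs. *Mrps18c* had 59.92 and 54.18 in Ctrl and 58.23 and 57.28 in cKO, so its groups overlapped, and the interval of its log2 fold change ran from −0.14 to 0.17. *Mrps30*, whose product also lies in the large subunit, had 28.69 and 29.0 in Ctrl and 30.61 and 31.09 in cKO, a log2 fold change of 0.09 that did not pass (limma, adjusted p = 0.26).

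The estimate was negative in 5 genes, and none of them passed. *Mrpl27*, next to the site of peptide bond formation, was the only gene with both cKO libraries below both Ctrl libraries. Its FPKM was 64.6 and 66.99 in Ctrl and 63.77 and 58.69 in cKO, a log2 fold change of −0.10 (limma, adjusted p = 0.274). *Mrps6* had 64.37 and 68.54 in Ctrl and 65.34 and 64.37 in cKO, and it shares 159 exon bases with *Slc5a3*. *Mrps28* had 39.58 and 34.43 in Ctrl and 39.41 and 33.01 in cKO. The groups overlapped in both, the spread within a genotype was larger than the difference, and the sign of either estimate turned with 1 library left out. The log2 fold changes of *Mrps15* and *Mrpl40* were −0.05 each.

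The order of the genes by level hardly differed between libraries. Mean FPKM ran from 5.74 for *Mrpl19* to 153 for *Mrps21*, and 74 of the 77 genes were above the median of all genes tested, 9.73. Spearman's rho of the 77 levels was between 0.978 and 0.993 for each pair of libraries, as a description across genes, which are not independent. The 5 most abundant were *Mrps21*, *Mrpl12*, *Mrpl30*, *Mrpl42* and *Mrpl20*. *Mrps21* had an FPKM of 140.04 and 152.5 in Ctrl and of 156.12 and 164.93 in cKO. Neighbours in this order did not all differ beyond their spread, since *Mrpl12* at 142 and *Mrpl30* at 139 overlapped across libraries. Of these 5, *Mrpl42* alone passed the test, with 111.73 and 115.96 in Ctrl and 139.13 and 130.39 in cKO. The least abundant were *Mrpl19*, *Mrps25* and *Mrpl17*, and none of them passed. *Mrpl19* had 5.37 and 5.28 in Ctrl and 5.8 and 6.5 in cKO. Between 199 and 3958 reads were estimated behind a single value of the 77 genes, the fewest for *Mrpl41* in Ctrl replicate 2. These numbers are rough, since the mean length of all transcripts listed for a gene was used, whichever are expressed.

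Other gene lists were counted in the same fit, and differences between lists were not tested. Of 80 tested nuclear genes for respiratory chain complexes and ATP synthase, 65 rose and 4 fell, and their median log2 fold change was 0.37. Of 77 cytosolic ribosomal protein genes, 12 rose (15.6%, near the 12.0% of all genes) and 0 fell, with a median of 0.16. Libraries that did not overlap were common in these lists too. Both cKO libraries lay above both Ctrl libraries in 72 of the 80 respiratory chain genes and in 60 of the 77 cytosolic ones. They lay below both in 4 and 0. The cytosolic median was −0.0003 with quantile normalization and 0.23 without cKO replicate 1, where those of the mitochondrial ribosomal proteins were 0.16 and 0.15 and those of the respiratory chain 0.26 and 0.32. Summed without *Mrps36*, mitochondrial ribosomal protein FPKM was 3279 and 3280 in Ctrl and 3735 and 3635 in cKO. For each 1000 FPKM of respiratory chain subunits there were 123 and 118 FPKM of mitochondrial ribosomal protein in Ctrl and 99.0 and 104 in cKO. Both cKO libraries were thus lower in this ratio. For each 1000 FPKM of cytosolic ribosomal protein there were 83.0 and 85.0 in Ctrl and 89.9 and 78.9 in cKO, and the groups overlapped. With 2 libraries against 2, an exact two-sided permutation test cannot go below p = 0.333, so none was run on these ratios.

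**Figure D3:**
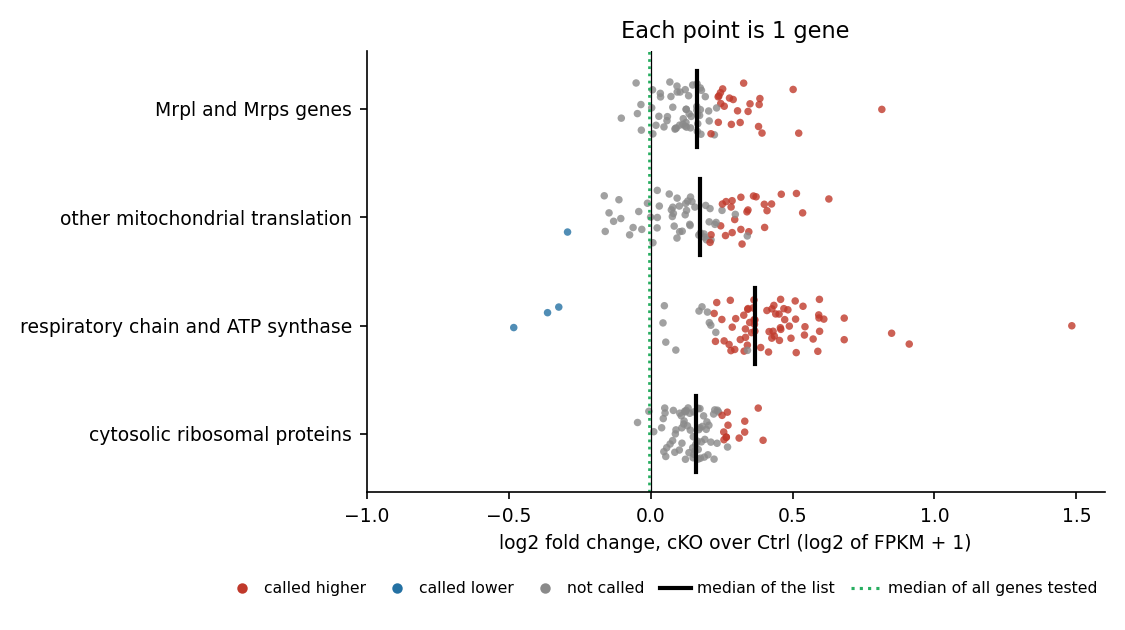
Log2 fold change (x axis, cKO over Ctrl, on log2 of FPKM + 1) of single genes in 4 lists, with red for genes that rose, blue for genes that fell and grey for the others. Black bars are list medians, at 0.16 for the mitochondrial ribosomal proteins, 0.17 for the other genes of mitochondrial translation, 0.37 for the respiratory chain and 0.16 for the cytosolic ribosomal proteins, and 1 respiratory chain gene lies beyond the axis.

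**Figure D4:**
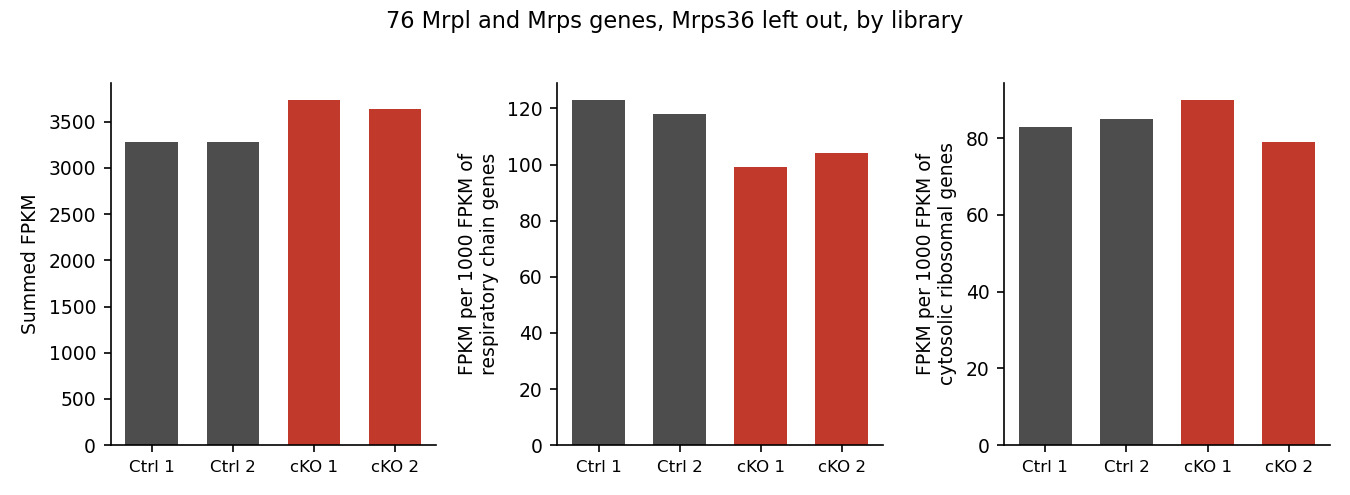
Mitochondrial ribosomal protein FPKM without *Mrps36* in each library (bars, from 0), summed, and per 1000 FPKM of respiratory chain subunits and of cytosolic ribosomal proteins. The cKO bars are above the Ctrl bars in the sum, below them in the ratio to respiratory chain subunits, and on both sides of them in the ratio to cytosolic ribosomal proteins.

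Other genes of mitochondrial translation were counted in the same fit, in a list that also takes in mitochondrial transcription and RNA handling. Of 78 such genes outside the *Mrpl* and *Mrps* names, all tested, 26 rose and 1 fell, and the median log2 fold change was 0.17. This count too depends on single libraries, and was lower with any library left out, as was the count over all genes. With no filter on low values 11 rose and 0 fell, where 667 and 1095 of all 19030 genes did. Of 6 ribosomal proteins with other names, 2 rose, *Ict1*, a peptidyl-tRNA hydrolase built into the large subunit, by 0.35 and *Ptcd3* of the small subunit by 0.25 on the log2 scale. Of 11 translation factors, 3 rose and none fell. *Gfm1*, which moves the ribosome along the mRNA, had an FPKM of 31.97 and 35.75 in Ctrl and of 54.55 and 51.1 in cKO. *Tufm*, which brings charged tRNA to the ribosome, had 73.48 and 73.97 in Ctrl and 112.36 and 99.43 in cKO. The groups were apart in both, and the log2 fold changes were 0.63 ± 0.07 and 0.51 ± 0.07 (SE, limma, adjusted p = 0.00144 and 0.00269). *Tsfm*, the exchange factor of *Tufm*, rose by 0.21 (limma, adjusted p = 0.0392).

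Of 20 genes that charge mitochondrial tRNAs, 8 rose and none fell. *Cars2*, the cysteinyl-tRNA synthetase, rose most, from an FPKM of 12.34 and 12.71 to 18.67 and 18.54 (log2 fold change 0.54, limma, adjusted p = 0.00141). Of 22 assembly and rRNA modification genes, 5 rose and 1 fell. The rRNA methyltransferase *Mrm1* had 5.06 and 5.51 in Ctrl and 7.36 and 6.8 in cKO, and rose by 0.36 on the log2 scale (limma, adjusted p = 0.0187). The pseudouridine synthase *Trub2* had 7.07 and 6.88 in Ctrl and 5.18 and 5.86 in cKO, and fell by 0.29 (limma, adjusted p = 0.0417). Of 19 genes of mitochondrial transcription and RNA handling, 8 rose and none fell. *Lrpprc*, which stabilises mitochondrial mRNAs, had 16.18 and 18.27 in Ctrl and 25.02 and 23.09 in cKO, a log2 fold change of 0.46 (limma, adjusted p = 0.00614). The mitochondrial RNA polymerase *Polrmt* and the factor *Tfam*, which packs and transcribes mitochondrial DNA, had log2 fold changes of 0.23 and 0.20 and did not pass (limma, adjusted p = 0.0658 and 0.088). No gene of the mitochondrial genome was analysed here, so the ribosome's RNAs and its products were not read.

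Of 8 regulators of nuclear genes for mitochondrial proteins, 3 rose. The coactivator *Ppargc1a* went from an FPKM of 1.97 and 2.16 to 4.56 and 4.35, its relative *Ppargc1b* from 3.57 and 4.2 to 7.89 and 7.21, and the receptor *Esrra* from 41.3 and 37.9 to 50.65 and 47.4. Their log2 fold changes were 0.83, 0.81 and 0.30 (limma, adjusted p = 0.00133, 0.00156 and 0.0169). The DNA-binding factors *Nrf1*, *Gabpa* and *Yy1*, known to act on promoters of such genes, had log2 fold changes of 0.07, 0.10 and 0.01, and none passed.

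Promoter sequence was looked at for motifs of these factors, on both strands, in the 300 bases that run from 250 before to 50 after the RefSeq start (GRCm38.p6). A promoter was found for 68 of the 77 genes. A gene was counted if any of its promoters held the motif. The ETS motif of Gabpa, CCGGAAG, was found for 36.8% of the 68 genes and for 19.9% of the 10003 tested genes with a promoter. It was in 8.86% of all 32851 promoters. This last share counts single promoters, not genes, so it is not directly comparable with the others. The Nrf1 motif, GCGCANGCG, was in 23.5%, 15.1% and 6.25% in the same order. The Yy1 motif, AAGATGGCG, was in 11.8%, 3.55% and 1.40%, and the Esrra motif, TCAAGGTCA, in 0 of the 68, in 0.310% and in 0.423%. Related lists held these motifs too. The ETS motif was in 23.9% of 67 respiratory chain genes and in 42.1% of 57 cytosolic ribosomal protein genes with a promoter. The Nrf1 motif was in 29.9% and 14.0%, the Yy1 motif in 10.4% and 5.26%, and the Esrra motif in 2.99% and 0%. Differences between lists were not tested. Among the mitochondrial ribosomal protein genes, the ETS motif was in 7 of 19 that rose and 18 of 49 that did not pass. In the same order, the Nrf1 motif was in 4 of 19 and 12 of 49, and the Yy1 motif in 2 of 19 and 6 of 49. A match is a description of the letters and does not show binding.

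Windows of 30 bases around a match are shown for genes at either end of the response. They were picked as the gene with the largest rise and the gene with the lowest log2 fold change that did not pass, among genes with a match within 150 bases before the start. Every window therefore holds a motif by choice, and whether a motif bears on the rise was not tested. For Yy1 no gene that rose had such a match. Capitals mark the motif, which is on the other strand in *Mrpl10* and *Mrpl36*.
Mrpl34, ETS motif, rose, GRCm38.p6 chr8:71464877-71464906, plus strand: gaactacagctcCCGGAAGgccccgcggca
Mrpl27, ETS motif, did not pass, GRCm38.p6 chr11:94653724-94653753, plus strand: tgtccgcaagacCCGGAAGtagatctatcc
Mrpl10, Nrf1 motif, rose, GRCm38.p6 chr11:97041436-97041465, plus strand: gcccagctccaCGCATGCGCatagcggccc
Mrpl17, Nrf1 motif, did not pass, GRCm38.p6 chr7:105811118-105811147, minus strand: caggctctgatGCGCACGCGcaaacgcggt
Mrpl36, Yy1 motif, did not pass, GRCm38.p6 chr13:73330967-73330996, plus strand: acgtgaccttaCGCCATCTTtcttcctggc

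The window of *Mrpl27* overlaps an annotated exon of *Eme1*, and that of *Mrpl36* an exon of *Mrpl36* itself. A start of another gene close by on the other strand was common among these genes. In 33 of the 77 (42.9%), and in 16.0% of the genes tested, a protein-coding gene on the other strand starts within 1000 bases. Starts on either side were counted, so some of these pairs overlap. Of 28 such partners that were tested, 7 rose and 0 fell, where 12.0% of all genes tested rose and 13.8% fell. Among the 7, *Mrpl46* is itself a mitochondrial ribosomal protein gene, and *Ndufs6*, *Ndufb5* and *Sars2* belong to lists counted above. *Mrps11* and *Mrpl46*, partners on chromosome 7, share 173 exon bases, and reads from those bases cannot be told apart. *Mrpl46* had an FPKM of 17.54 and 19.26 in Ctrl and of 25.28 and 22.23 in cKO and rose by 0.35 (limma, adjusted p = 0.0202), whereas *Mrps11* had 24.15 and 22.51 in Ctrl and 25.81 and 24.42 in cKO, a log2 fold change of 0.10 (limma, adjusted p = 0.292). *Mrps27* rose with its partner *Ptcd2*, with log2 fold changes of 0.38 and 0.36. *Mrpl36*, at 0.06, did not pass while its partner *Ndufs6*, a respiratory chain subunit, rose by 0.29 (limma, adjusted p = 0.0225). The genes of this pair share 30 exon bases. Whether partners differ in their response was not tested.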

How the data were processed

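Polyadenylated RNA of ingWAT was sequenced by the authors in 2 Ctrl and 2 cKO libraries. The deposited values are FPKM for each gene and library. The submitters' processing notes name HISAT2 2.0.4, RSEM 1.2.12 and the build mm10, with no scaling between libraries stated. Depth was not given. It was worked out from the smallest FPKM steps of 319 genes whose RNAs have at most 400 bases. The depth was chosen to bring the values of few reads close to whole numbers. At that depth, between 84.4% and 89.6% of the 139 to 144 such values of a library were whole reads within 0.1. This share is therefore not a separate check of the depth.

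The genes tested had a mean FPKM of 1 or more over the libraries. Values were taken as log2(FPKM + 1), and genotypes were compared by limma 3.58.1 (R 4.3.3, eBayes with a trend, Benjamini-Hochberg adjustment over 12658 genes, threshold 0.05). Fold changes are on that scale and understate those of low genes. The procedure was tested on simulated data first. Alternatives were another pseudocount, other filters, median-of-ratios scaling, quantile normalization, no trend, the replicate block and each library left out. Exons, coordinates and gene starts are from GENCODE for GRCm38 and promoters from RefSeq. The genes *Mrm2*, *Mrm3* and *Rcc1l* were found by gene ID under older symbols. Python 3.11.15 was used for the other steps.

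The members and lists were chosen with earlier results of these data known. Named genes are all members that passed, the 5 most and 3 least abundant, members singled out for their place or name (*Mrps18a*, *Mrps18b*, *Mrps18c*, *Mrps30*, *Mrps36*, *Mrps6*, *Mrpl12*, *Mrps28*), the targeted gene, the called genes with the largest rise and fall of each list of other genes of mitochondrial translation, and *Tufm*, *Lrpprc*, *Polrmt* and *Tfam*. The 2-oxoglutarate dehydrogenase genes, *Mrpl11*, *Mrps12*, *Mrpl27*, *Mrps15*, *Mrpl40*, *Tsfm*, *Ptcd3*, the regulators and the genes next to members were named after their values were seen.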

Additional observations from a re-analysis of the deposited data

How the results depend on the processing

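The calls kept their direction under the 11 alternatives, but the estimates of 3 named genes that did not pass changed sign with 1 library left out. *Mrps28* ran from −0.157 to 0.0918, above 0 without Ctrl replicate 1 and without cKO replicate 2, *Mrps18c* from −0.0523 to 0.0905 and *Mrps6* from −0.0786 to 0.0106, both with the sign changed without Ctrl replicate 2. The median log2 fold change of the mitochondrial ribosomal protein genes stayed between 0.15 and 0.17, from 69 to 73 of the 77 estimates were positive in each, and 66 were positive in all; 0 genes were called lower in any. The number called higher, 23, was 10 with no filter on low values, where 19030 genes are tested, and between 3 and 18 with 1 library left out, where the lone library is assumed to vary like the others (3 without Ctrl replicate 1, 6 without Ctrl replicate 2, 7 without cKO replicate 1, 18 without cKO replicate 2). It was 16 without a trend, 25 with a mean FPKM of at least 5 and 23 with each scaling. Of the other genes of mitochondrial translation, 26 were called higher and 1 lower. With no filter these were 11 and 0, beside 667 and 1095 of all 19030 genes. Fewer were called higher with any 1 library left out, as over all genes, and the 1 called lower was kept only without cKO replicate 2. For the 36 mitochondrial ribosomal protein genes named, 307 of 396 values kept their direction and their side of the threshold, 82 no longer passed, 3 newly passed and the 4 above changed sign. Samples of the 2 genotypes share replicate numbers, but the deviations of same-numbered libraries were not correlated (r = 0.01 across genes), so the numbers were not treated as pairs; with the replicate block 25 of the mitochondrial ribosomal protein genes were called higher, including the 23, and 28 of the other genes. The fewest reads estimated behind a value, roughly, from the mean length of a gene's listed transcripts, were 199, for *Mrpl41* in Ctrl replicate 2.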
